A study of Gallus gallus with 6 samples.

Results

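The B cell receptor signalling chain was followed through 10 genes, CD79B, CD72, LYN, SYK, BTK, BLNK, PIK3AP1, DAPP1, PLCG2 and RASGRP3. All probe sets annotated to these genes were taken, 20 of the 38439 chicken probe sets on the array and 10 of its 13009 named genes, and all 20 passed the filter on low signals. The cells were DT40, a line derived from a chicken bursal B cell lymphoma, hybridised to Affymetrix arrays at 2 arrays per group. The 3 groups were K11-5 cells, labelled as completely lacking the linker histone H1; K11 cells, labelled as knocked out for endogenous H1; and wild type cells. All 3 groups grew at 39.5 °C with 100 nM of Z-VAD-FMK, a pan-caspase inhibitor, so its effect is shared by the wild type arrays and cannot be seen here. No source used here says how K11 and K11-5 differ in their alleles or whether each is a single clone. Nor is it said that arrays sharing a label are independent cultures, so the p-values may measure technical spread only.

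The B cell receptor is an immunoglobulin bound to a pair of signalling chains, CD79A and CD79B. When antigen clusters the receptor, the Src family kinase LYN phosphorylates tyrosines in the tails of these chains, SYK docks there, and the adaptor BLNK gathers BTK and phospholipase C gamma 2 (PLCG2) so that the lipase is switched on. Its products release calcium and activate protein kinase C and Ras, while a parallel arm through PIK3AP1 engages PI3-kinase. DT40 cells are widely used to study this chain because its genes can be deleted in them by targeting.

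Signals are array brightness after quantile normalization, and differences are limma fits on log2(signal + 2) with p-values adjusted over all 23063 probe sets tested. A signal of 11.4, the 95th percentile of 23 unspiked control probe sets, was taken as the background floor. The linker histone probe sets tested were not lower in K11-5, although those cells are labelled as completely lacking H1. No source used here places the probe sets with respect to a deletion, so they could not settle the labels. HIST1H111L read 4738 and 4430 in K11-5, 5819 and 1594 in K11, and 1650 and 2189 in wild type. HIST1H111R read 34.7 and 16.8 in K11-5, 33.0 and 21.2 in K11, and 9.17 and 1.17 in wild type. Neither was called lower in a mutant, and H1FOO was too dim to be tested. The log2 differences relative to wild type were 1.27 (K11-5) and 0.68 (K11) for HIST1H111L, with 2.14 (K11-5) and 2.26 (K11) for HIST1H111R, and none passed (lowest adjusted p = 0.0597). Log2 signals of the 2 arrays of each group correlated across probe sets with r from 0.932 to 0.954. Ratios of 3' to 5' actin signal were 6.29 and 5.28 in K11-5, 9.23 and 9.31 in K11, and 8.10 and 7.15 in wild type, so the K11-5 arrays had the lowest values. Those of GAPDH, at 0.914 and 0.798 in K11-5, 0.832 and 0.819 in K11, and 0.892 and 0.917 in wild type, did not set K11-5 apart. The part of these ratios in the results was not tested.

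Against wild type, K11-5 cells had lower signals at all 20 probe sets, and 7 of them, from 5 of the 10 genes, passed the test. These were CD79B, the receptor's signalling chain; CD72, a coreceptor; the kinase BTK; the adaptor DAPP1; and RASGRP3, an activator of Ras. No probe set rose. At an unadjusted p under 0.05, 15 were lower and 0 higher, against 9.69 and 9.37 percent of all tested. Over all probe sets tested, 2.87 percent fell and 2.61 percent rose in this comparison. The member median was -1.03 on the log2 scale, and that of all probe sets tested was -0.0038. The 2 K11-5 arrays lay below both wild type arrays at 15 of the 20 probe sets, where 26.9 percent of all those tested did so.

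**Figure D1:**
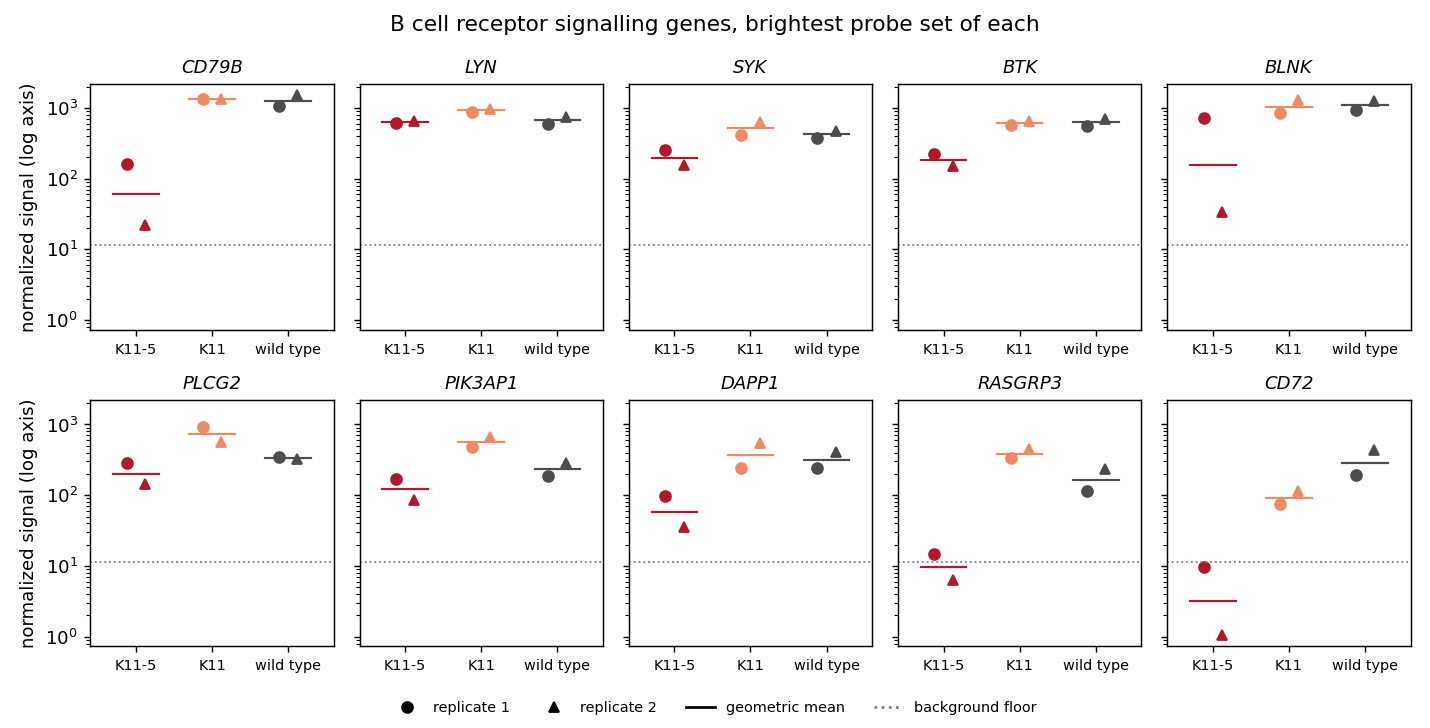
Normalized signal, on a log axis, of the brightest probe set of each gene in K11-5, K11 and wild type, left to right; circles are replicate 1, triangles replicate 2, bars geometric means, and the dotted line the background floor of 11.4. In K11-5, RASGRP3 and CD72 lay near or under the floor, CD79B at 163 and 21.9, and LYN at 622 and 658, between its values in the wild type arrays.

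CD79B carries the tyrosine motif through which the receptor signals. Its probe set read 163 and 21.9 in K11-5, 1328 and 1352 in K11, and 1053 and 1533 in wild type. Both K11-5 arrays lay far under the other 4, which overlapped, and the K11-5 arrays were themselves 6.93-fold apart. CD79B fell 20.3-fold in K11-5 against wild type, a log2 fold change of -4.34 ± 0.65 (SE, limma adjusted p = 0.00634). Against K11 it fell 21.4-fold (adjusted p = 0.0110). With a single K11-5 array left, a fit holds none of the spread within K11-5, so sizes alone are given. Without K11-5 replicate 2 the log2 fold changes were -2.94 against wild type and -3.02 against K11. Leaving out K11-5 replicate 1 gave -5.74 for the first of these, and leaving out wild type replicate 2 gave -4.07, which no longer passed (adjusted p = 0.0639). The difference between K11 and wild type was 0.08, with a 95% interval of -1.38 to 1.54, and its sign turned on the deposited scale (-0.49). That interval rests on 1 spread shared by all 3 groups. SDs of the log2 signals were 1.97 in K11-5, 0.02 in K11 and 0.38 in wild type, so most of that spread came from K11-5. In bulk RNA, fewer cells that express a gene and less RNA per cell cannot be told apart.

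CD72 is a transmembrane lectin that recruits the phosphatase SHP-1 and damps receptor signals. Its brighter probe set read 9.80 and 1.05 in K11-5, 74.2 and 114 in K11, and 192 and 433 in wild type. The 3 groups did not overlap, and both K11-5 arrays lay under the floor. CD72 was thus at least 21.8-fold lower in K11-5 than in wild type (adjusted p = 0.000949) and at least 7.03-fold lower than in K11 (adjusted p = 0.0108), bounds taken over the floor. K11 differed from wild type by -1.63 ± 0.58 on the log2 scale, which did not pass (adjusted p = 0.131).

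The second CD72 probe set was dimmer and read 12.5 and 9.51 in K11-5, 21.5 and 31.4 in K11, and 34.3 and 67.9 in wild type. Its groups kept the same order. The fitted difference of K11-5 from K11 was -1.12 on the log2 scale and did not pass (adjusted p = 0.191). By group means the probe set was at least 3.61-fold lower in K11-5 than in wild type (adjusted p = 0.0246), with a fitted 95% interval of -2.88 to -1.04. That call was lost without K11-5 replicate 1 (adjusted p = 0.0626), K11-5 replicate 2 (0.138) or wild type replicate 2 (0.286), whereas the brighter probe set kept its call without each array in turn, at -6.58 without K11-5 replicate 1 and -4.62 without K11-5 replicate 2 against wild type, and -4.95 and -2.99 against K11.

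LYN is the Src family kinase that starts the chain and also phosphorylates inhibitory coreceptors. Its bright probe set read 622 and 658 in K11-5, 876 and 978 in K11, and 598 and 744 in wild type. The K11-5 and wild type arrays overlapped fully, with a difference of -0.06 ± 0.16 on the log2 scale and a 95% interval of -0.42 to 0.30. Both K11 arrays lay above the rest, by 0.47 ± 0.16 against wild type (adjusted p = 0.110), a sign that turned on the deposited scale (-0.10). LYN lies on chromosome 2, where all tested probe sets together had medians, relative to wild type, of -0.39 in K11-5 and -0.41 in K11. With each chromosome's median set to 0, the bright probe set stood at 0.36 for K11-5 (adjusted p = 0.320) and at 0.92 for K11 (adjusted p = 0.0170), each relative to wild type.

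The other LYN probe sets were dim and passed in no comparison. The brighter of these read 31.5 and 25.2 in K11-5, 26.0 and 43.5 in K11, and 50.1 and 56.7 in wild type, lower in both mutants than in wild type. The dimmest, at 2.29 to 13.9 over the 6 arrays, was under the floor in 4 of them. The bright probe set and the brighter of the dim ones thus disagreed on K11 against wild type, at 0.47 and -0.63. They also differed in size for K11-5 against wild type, at -0.06 and -0.87 ± 0.33 (limma adjusted p = 0.177 for the second).

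SYK is the kinase that binds the phosphorylated receptor tails. Its brighter probe set read 253 and 156 in K11-5, 410 and 642 in K11, and 377 and 473 in wild type. Both K11-5 arrays lay below the other 4. The difference from K11 was -1.36 ± 0.28 on the log2 scale and passed (adjusted p = 0.0338), while that from wild type, -1.08 ± 0.28, just missed (adjusted p = 0.0516). The call against K11 was lost without K11-5 replicate 2 (adjusted p = 0.207), K11 replicate 2 (0.0860), wild type replicate 1 (0.0614) or wild type replicate 2 (0.0638). The difference from wild type passed in 6 of 14 alternatives, the deposited scale among them (-1.28, adjusted p = 0.0117). The dimmer probe set read 33.0 and 24.2 in K11-5, 46.9 and 38.0 in K11, and 55.8 and 59.99 in wild type. It kept K11-5 lowest but passed in neither comparison (adjusted p = 0.377 against K11 and 0.0898 against wild type).

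BTK, the Tec family kinase that phosphorylates PLCG2, had the smallest standard error among the genes that fell. It read 225 and 150 in K11-5, 572 and 664 in K11, and 549 and 708 in wild type. The K11 and wild type arrays overlapped and both K11-5 arrays lay well below them. BTK fell 3.36-fold against wild type (log2 -1.75 ± 0.22, adjusted p = 0.00285) and 3.32-fold against K11 (adjusted p = 0.00596). Without wild type replicate 2 the first value was -1.56 and just missed (adjusted p = 0.0527). K11 and wild type differed by -0.02, with a 95% interval of -0.51 to 0.48.

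**Figure D2:**
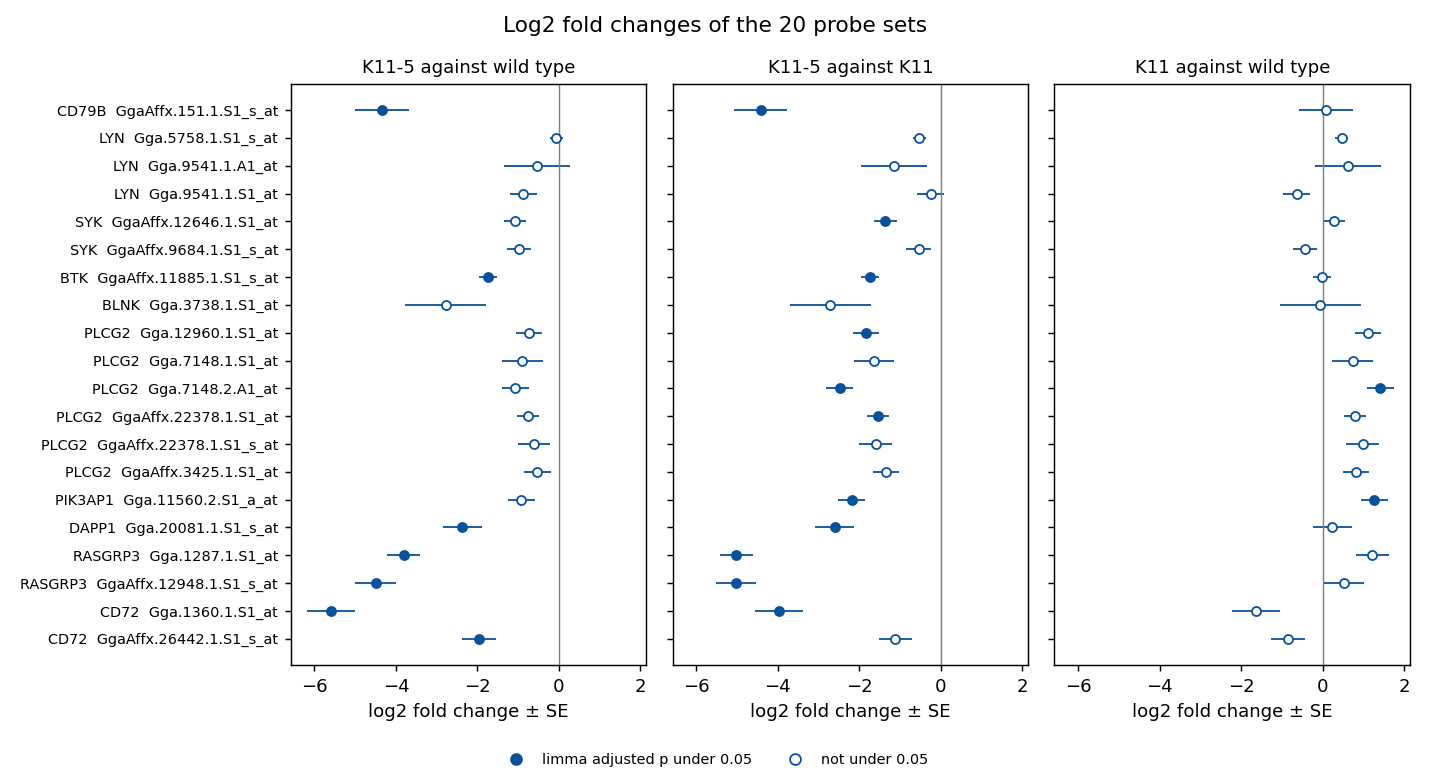
Log2 fold change with SE of each of the 20 probe sets in K11-5 against wild type, K11-5 against K11 and K11 against wild type, left to right; filled points passed the threshold. All points of the first 2 panels lie below 0, with 7 and 11 filled, and those of the third lie on both sides of 0, with 2 filled.

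BLNK is the scaffold that holds BTK and PLCG2 together; the array's annotation and RefSeq list this gene under the symbol SH2D6, with BLNK as a synonym. It read 710 and 33.4 in K11-5, 845 and 1282 in K11, and 941 and 1257 in wild type. The K11-5 arrays were 20.1-fold apart, with replicate 1 just under the other groups and replicate 2 far below them. The mean difference from wild type, -2.78 ± 0.99 on the log2 scale, did not pass (adjusted p = 0.151). Without K11-5 replicate 2 it was -0.61 (adjusted p = 0.346). No direction can be given for BLNK beyond the order of these arrays.

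PIK3AP1, also called BCAP, is the adaptor through which the receptor recruits PI3-kinase. It read 172 and 86.7 in K11-5, 480 and 662 in K11, and 188 and 289 in wild type. Here K11 stood apart, above both other groups. It was 2.40-fold higher in K11 than in wild type (adjusted p = 0.0439) and 4.56-fold lower in K11-5 than in K11 (log2 -2.19 ± 0.33, adjusted p = 0.0112). The first call was lost without K11 replicate 1 (adjusted p = 0.0710), K11 replicate 2 (0.155), wild type replicate 1 (0.299) or wild type replicate 2 (0.101), and the second without K11-5 replicate 2 (-1.70, adjusted p = 0.0785). K11-5 differed from wild type by -0.92 ± 0.33, which did not pass (adjusted p = 0.148).

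DAPP1, also called Bam32, is an adaptor that binds the lipid product of PI3-kinase at the membrane. It read 96.1 and 35.3 in K11-5, 243 and 551 in K11, and 239 and 405 in wild type. The K11 and wild type arrays overlapped, and both K11-5 arrays lay below them. DAPP1 fell 5.17-fold against wild type (log2 -2.37 ± 0.48, adjusted p = 0.0208) and 6.09-fold against K11 (adjusted p = 0.0235). Without K11-5 replicate 2 these were -1.67 (adjusted p = 0.142) and -1.91 (0.153). Without wild type replicate 2 the first was -1.99 (adjusted p = 0.191), and without K11 replicate 2 the second was -2.02 (adjusted p = 0.0724).

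PLCG2, which makes the messengers that release calcium and activate protein kinase C, has 6 probe sets on the array. The brightest by mean signal over the 6 arrays read 281 and 143 in K11-5, 931 and 562 in K11, and 346 and 324 in wild type. The second brightest read 166 and 90.5 in K11-5, 613 and 789 in K11, and 189 and 356 in wild type. K11 was the highest group at both, and the K11-5 arrays lay below wild type. The fifth brightest read 94.2 and 54.8 in K11-5, 201 and 230 in K11, and 127 and 121 in wild type, again in that order. At the remaining 3 probe sets every K11-5 array also lay below every K11 array, while the K11-5 and wild type arrays overlapped.

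All 6 PLCG2 probe sets had this order of group means, K11 above wild type and wild type above K11-5. Between K11-5 and K11 the log2 fold changes were -2.48 to -1.34, and 3 of the 6 passed. These were the second brightest (-2.48 ± 0.34, adjusted p = 0.00747), the brightest (-1.84 ± 0.31, adjusted p = 0.0180) and the fifth brightest (-1.55 ± 0.27, adjusted p = 0.0194). All 3 calls were lost without K11-5 replicate 2, at -2.05, -1.36 and -1.17 (adjusted p = 0.0629, 0.121 and 0.127), and that of the brightest also without K11 replicate 1 (-1.48, adjusted p = 0.0715). Between K11-5 and wild type they were -1.07 to -0.53 and none passed, with the lowest adjusted p at 0.103 and 3 of 6 at an unadjusted p under 0.05. Without K11-5 replicate 2, 2 of these turned sign, the dimmest to 0.07 and the fourth brightest to 0.18.

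Between K11 and wild type the PLCG2 log2 fold changes were 0.74 to 1.41, and the second brightest probe set passed (1.41 ± 0.34, a 2.67-fold rise, adjusted p = 0.0320). That call was lost without K11 replicate 1 (adjusted p = 0.0707), K11 replicate 2 (0.114) or wild type replicate 1 (0.248). Chromosome 11, where PLCG2 lies, had medians over all its tested probe sets, relative to wild type, of 0.42 in K11-5 and 0.38 in K11. With chromosome medians set to 0, the same probe set stood at -1.48 for K11-5 (adjusted p = 0.0370) and at 0.95 for K11 (adjusted p = 0.139), each relative to wild type. All 6 probe sets share a gene and are not replicates of the condition.

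**Figure D3:**
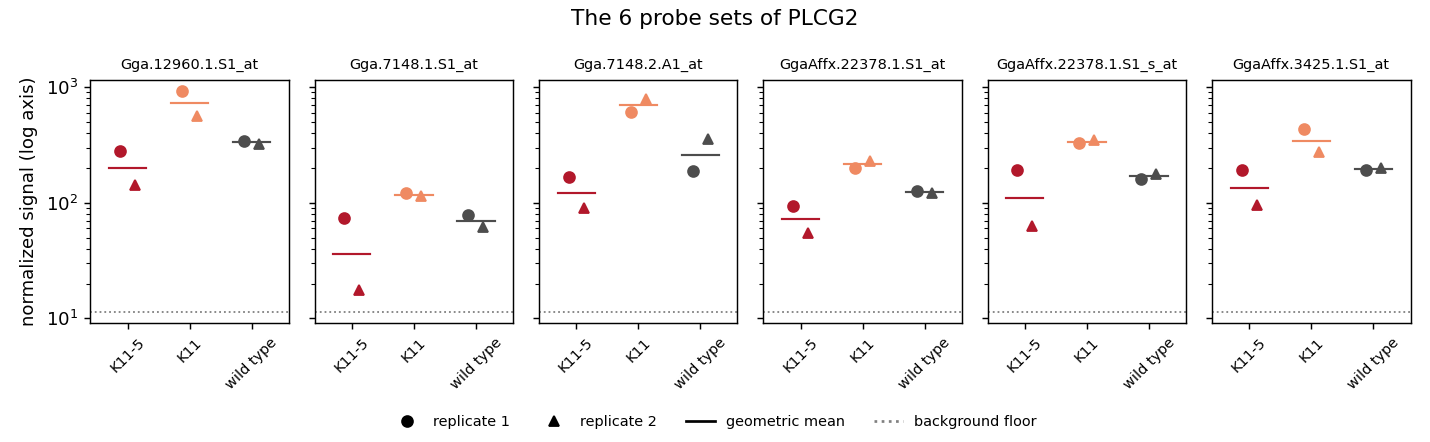
Normalized signal, on a log axis, of the 6 PLCG2 probe sets in K11-5, K11 and wild type, left to right; circles are replicate 1, triangles replicate 2, bars geometric means, and the dotted line the background floor. In each panel the K11 mean is the highest and the K11-5 mean the lowest, and K11-5 replicate 2 is the lowest of the 6 arrays.

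RASGRP3 is the exchange factor that answers the lipase product diacylglycerol by activating Ras. Its first probe set read 15.0 and 6.30 in K11-5, 332 and 444 in K11, and 114.6 and 234 in wild type. The second probe set read 1.30 and 8.35 in K11-5, 187 and 189 in K11, and 94.4 and 179 in wild type. At both, every K11 array lay above every wild type array and every K11-5 array lay at or near background.

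Both RASGRP3 probe sets fell in K11-5, with 95% intervals against wild type of -4.70 to -2.90 and -5.60 to -3.40 on the log2 scale. The fold bounds that follow apply to group means. The first probe set was at least 11-fold lower than in wild type (adjusted p = 0.00104) and at least 25.6-fold lower than in K11 (adjusted p = 0.000629). The second was at least 9.88-fold lower than in wild type (adjusted p = 0.00126) and at least 14.2-fold lower than in K11 (adjusted p = 0.00178). These calls were kept without each array in turn, although K11-5 replicate 1 was the higher array at the first probe set and the lower at the second. Without K11-5 replicate 1 the fitted differences of the second were -3.67 from wild type and -4.20 from K11, and without K11-5 replicate 2 they were -5.32 and -5.85. Between K11 and wild type the differences were 1.22 (adjusted p = 0.105) and 0.53 (adjusted p = 0.599).

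Set against K11 in place of wild type, K11-5 had 11 probe sets from 8 genes that fell, all genes but LYN and BLNK, and none that rose. At an unadjusted p under 0.05, 17 were lower and 0 higher, against 8.53 and 9.16 percent of all tested. The median over the 20 probe sets was -1.69, against 0.02 over all tested, where 1.76 percent fell and 1.11 percent rose. Both K11-5 arrays lay below both K11 arrays at 19 of the 20, the exception being the brighter of the dim LYN probe sets, and at 21.8 percent of all probe sets tested. K11 against wild type had 2 probe sets that rose, 1 each of PLCG2 and PIK3AP1, and none that fell, where 3.75 percent of all tested rose and 4 percent fell. At an unadjusted p under 0.05, 8 member probe sets were higher and 1 lower, against 10.4 and 11.3 percent of all tested. Of those 8, 5 were probe sets of PLCG2. The member median was 0.50, against -0.01 over all tested. It was 0.27 with array medians centred, and -0.02 on the deposited scale, where that of all tested was -0.31. Leaving out 1 array at a time, it ranged from 0.096 to 0.62. With the brightest probe set of each gene, medians relative to the wild type mean were 0.01 in K11 replicate 1 and 0.58 in K11 replicate 2. Both K11 arrays lay above both wild type arrays at 10 of 20 probe sets from 4 genes, against 25.1 percent over all tested. They lay below both at 4 of 20 from 3 genes, against 26.9 percent. The 3 comparisons share their arrays in pairs. RefSeq (GRCg7b) places the other genes of the chain on chromosomes 27 (CD79B), 3 (RASGRP3), 4 (BTK and DAPP1), 6 (BLNK and PIK3AP1) and Z (SYK and CD72), whose medians lay between -0.16 and 0.08 against wild type except for 0.38 on chromosome 27 in K11-5, a shift opposite in sign to that of CD79B.

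These counts depended on single arrays and on the model of the spread. For K11-5 against wild type the count that fell was 3 when wild type replicate 2 was left out, 5 for K11-5 replicate 2 and 10 for K11-5 replicate 1, where 0.256, 0.841 and 1.81 percent of all probe sets tested fell. For K11-5 against K11 it was 5 without K11-5 replicate 2 and 15 without K11-5 replicate 1, where 0.373 and 1.53 percent of all fell. The 2 rises in K11 became 0 when K11 replicate 1 was left out, and likewise 0 for wild type replicate 1, where 1.99 and 0.937 percent of all rose. The share called over all probe sets was lower in each of these fits than in the full one. Without K11-5 replicate 1 the member counts rose instead. On the deposited scale, where 2614 probe sets fell and 316 rose in K11 against wild type in place of 922 and 864, no member rose and 1 fell. That scale gave 808 falls and 305 rises over all probe sets in K11-5 against wild type in place of 663 and 601, with 10 members that fell, and 247 and 782 in K11-5 relative to K11 in place of 405 and 255, with 11. Centring array medians alone gave 372 and 533 there, and 1481 and 720 between K11 and wild type. When limma's prior spread was not allowed to vary with signal, no member passed in any comparison, and few probe sets passed at all: 11 fell and 16 rose in K11-5 against wild type, 0 and 0 in K11-5 against K11, and 12 and 9 in K11 against wild type. At an unadjusted p under 0.05 there were then 10, 15 and 3 of 20 members in these comparisons, against 16.1, 14.4 and 18.3 percent of all tested.

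The 2 K11-5 arrays differed from each other along the chain. Replicate 1 was the higher at 17 of 20 probe sets, with a median gap of 0.91 on the log2 scale, whereas over all probe sets tested 50.1 percent were higher in replicate 1 and the median gap was 0.0015. Against the wild type mean, the 20 probe sets had a median of -0.68 in K11-5 replicate 1 and -1.46 in K11-5 replicate 2. BLNK showed the widest gap, at -0.61 and -4.94, followed by CD79B at -2.94 and -5.74. In the other groups replicate 1 was the higher at 4 of 20 probe sets in K11 and 3 of 20 in wild type, with median gaps of -0.29 and -0.39. The direction of the K11-5 gap was thus opposite to theirs, and replicate numbers carry no meaning across groups.

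**Figure D4:**
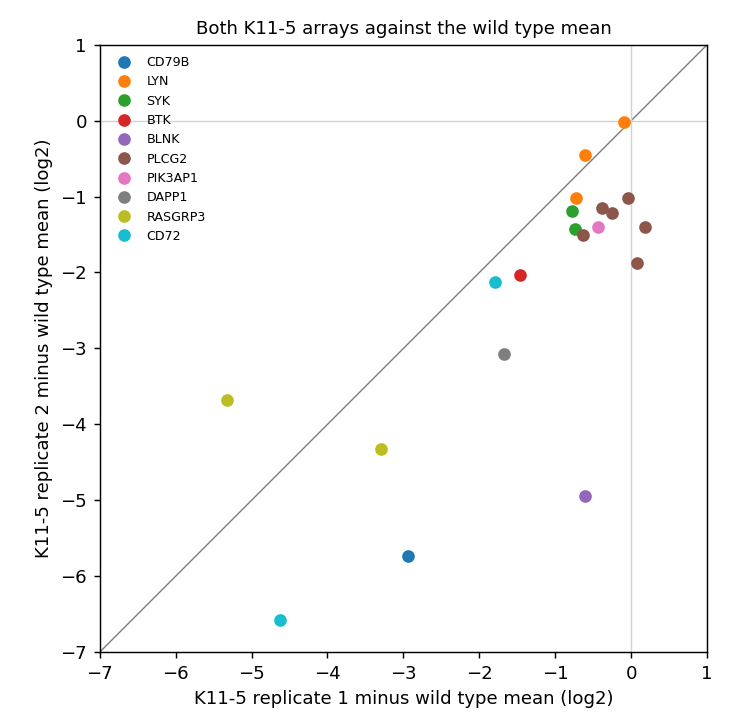
Difference from the wild type mean on the log2 scale in K11-5 replicate 1 (horizontal) and K11-5 replicate 2 (vertical) for the 20 probe sets, coloured by gene; the diagonal marks equal values. Points below the diagonal, 17 of 20, are lower in replicate 2, and the farthest from it is BLNK.

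The rest of the pathway was read from 7 lists of 110 genes, of which 76 were tested with 1 probe set each. In K11-5 against wild type 4 of these fell and 4 rose, where 3.62 percent of all 10015 genes tested fell and 3.51 percent rose, and their median was -0.02. In K11-5 against K11, 6 fell and 1 rose (2.35 and 1.55 percent over all genes). In K11 against wild type 3 fell and 7 rose (5.24 and 5.08 percent over all genes). The 10 genes of the chain were themselves chosen with earlier results known, so nothing is read from setting them beside these lists.

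Among surface regulators, PTPRC, the CD45 phosphatase that keeps Src family kinases active, was 330 and 254 in K11-5, 978 and 536 in K11, and 582 and 506 in wild type. It fell in K11-5 against K11 (-1.32 ± 0.26, adjusted p = 0.0321) and was the sole surface gene of 6 tested to pass in any comparison. A second PTPRC probe set stood at -0.89 there (adjusted p = 0.0889). FYN, a relative of LYN, read 158 and 162 in K11-5, 199 and 127 in K11, and 73.4 and 40.4 in wild type. It was the sole other tyrosine kinase of 5 tested to pass, and it rose in both mutants, by 1.52 in K11-5 (adjusted p = 0.0230) and 1.51 in K11 (adjusted p = 0.0192). A second FYN probe set stood at 0.89 and 0.83 and did not pass (adjusted p = 0.246 and 0.249).

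The largest change of the wider pathway against wild type was at SLA, an adaptor that promotes the removal of antigen receptors and their kinases. SLA read 1294 and 1039 in K11-5, 1901 and 1313 in K11, and 98.6 and 46.4 in wild type. All mutant arrays lay far above wild type, those of K11 above those of K11-5. It rose 16.6-fold in K11-5 (adjusted p = 0.000181) and 22.7-fold in K11 (adjusted p = 0.000121) against wild type, and all 3 of its probe sets had this sign. Of the other 14 adaptors tested, SWAP70 fell in K11-5 against K11 (-1.06, adjusted p = 0.0235). Other SWAP70 probe sets stood at -1.01 and -0.75 and did not pass (adjusted p = 0.126 and 0.519).

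Of 11 PI3-kinase and AKT genes, the catalytic subunit PIK3CB was higher in K11-5 than in wild type (log2 1.55 ± 0.35, limma adjusted p = 0.0326). By group means it was at least 2.91-fold higher, at a dim probe set that lay under the floor in 1 wild type array. Its other 2 tested probe sets stood at 0.25 and 0.11 on the log2 scale (adjusted p = 0.768 and 0.915). PIK3CD, the catalytic subunit most used by lymphocytes, read 110 and 168 in K11-5, 397 and 339 in K11, and 179 and 154 in wild type. It rose in K11 against wild type (1.13, adjusted p = 0.0198) and fell in K11-5 against K11 (-1.42, adjusted p = 0.0170), although 1 of its 4 tested probe sets had the first sign and 3 of 4 the second. The regulatory subunit PIK3R1 fell in K11-5 against K11 (-1.65, adjusted p = 0.0219), while a second PIK3R1 probe set stood at -0.48 (adjusted p = 0.638).

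Of 16 genes of calcium, NFAT and protein kinase C signalling, 3 fell in K11-5 against wild type. PRKCD, a diacylglycerol-activated kinase, read 26.9 and 54.6 in K11-5, 77.5 and 103 in K11, and 125 and 181 in wild type (-1.91, adjusted p = 0.0136). PRKCB, the isoform that links the receptor to NF-kappaB, fell by 1.65 at its brightest probe set (adjusted p = 0.0126), a sign shared by 4 of its 5 probe sets. In K11 against wild type that probe set did not pass (-0.48, adjusted p = 0.391), but 3 others did, at -1.60, -1.32 and -3.05 (adjusted p = 0.0164, 0.0445 and 0.0267), and no PRKCB probe set passed in K11-5 against K11. ORAI1, the pore of the store-operated calcium channel, fell by 1.01 in K11-5 (adjusted p = 0.0257) and by 1.01 in K11 (adjusted p = 0.0214) against wild type. NFATC3, a calcium-dependent transcription factor on chromosome 11, rose in K11 against wild type (1.11, adjusted p = 0.00479). That call was lost with chromosome medians set to 0 (0.64, adjusted p = 0.0519) and on the deposited scale (0.54, adjusted p = 0.118). Other NFATC3 probe sets had the same sign and did not pass.

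Among 8 Ras and MAP kinase genes, RASGRP1, the relative of RASGRP3 best known from T cells, read 73.7 and 96.9 in K11-5, 83.6 and 60.1 in K11, and 34.8 and 31.8 in wild type. It rose in K11-5 against wild type (1.29, adjusted p = 0.0280), the opposite sign to RASGRP3. A second RASGRP1 probe set stood at 0.55 (adjusted p = 0.371). MAP2K1, which activates ERK, was 1.99-fold lower in K11 than in wild type (adjusted p = 0.00672) and rose in K11-5 against K11 (0.74, adjusted p = 0.0396). K11-5 and wild type differed by -0.25 there (adjusted p = 0.442). The other MAP2K1 probe set gave -1.01 (adjusted p = 0.0116) and 0.73 (0.0639) in the first 2 comparisons. Both calls of the brighter one were lost with chromosome medians set to 0.

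Of 15 inhibitors of the pathway, UBASH3B, a phosphatase that acts on SYK family kinases, read 58.9 and 27.1 in K11-5, 26.1 and 43.2 in K11, and 179 and 186 in wild type. It fell in both mutants, with log2 fold changes from wild type of -2.13 in K11-5 (adjusted p = 0.0117) and -2.37 in K11 (adjusted p = 0.00648). A second UBASH3B probe set passed in K11 (-1.59, adjusted p = 0.0256) but not in K11-5 (-1.34, adjusted p = 0.0597). DGKD, which consumes diacylglycerol, rose in K11 against wild type (1.35, adjusted p = 0.0139) and fell in K11-5 against K11 (-1.53, adjusted p = 0.0173), with 1 of its 4 probe sets of the opposite sign in each. RASA2, a GTPase-activating protein for Ras, rose in K11 against wild type (0.81, adjusted p = 0.0192). Other RASA2 probe sets stood at 0.41 and 0.46 (adjusted p = 0.365 and 0.324). The rises of DGKD and RASA2 were lost with chromosome medians set to 0 and on the deposited scale. PTPN6, the SHP-1 phosphatase, read 134 and 100.5 in K11-5, 293 and 280 in K11, and 95.5 and 169 in wild type. It was lower in K11-5 than in K11 (-1.29, adjusted p = 0.0432) and rose in K11 against wild type (1.16, adjusted p = 0.0341), while K11-5 and wild type arrays overlapped (-0.13, adjusted p = 0.863).

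Most of these pathway calls were lost when single arrays were left out. Each fit named next leaves a single array in 1 group, and fewer of all probe sets were then called as well. The losses cannot be told apart from this general drop, so they are not read as a trait of these genes. Of the 8 named in K11-5 against wild type, 7 were lost when wild type replicate 2 was left out and 6 each when K11-5 replicate 1 or K11-5 replicate 2 was. Of the 9 named in K11 against wild type, 8 depended on wild type replicate 2, 6 on wild type replicate 1 and 5 on K11 replicate 1. Of the 7 named in K11-5 against K11, 6 were lost without K11-5 replicate 2, and 5 each without K11-5 replicate 1 and K11 replicate 1. SLA alone kept its calls without each array in turn, at 3.53 to 4.59 in K11-5 and 3.98 to 5.03 in K11 against wild type. On the deposited scale 11 pathway genes fell and 1 rose in K11 against wild type. Over all probe sets tested, 11.3 percent fell and 1.37 percent rose in that fit, so these counts are not read as a trait of the pathway. Among the pathway genes SLA was the sole rise against wild type in either mutant on that scale. With chromosome medians set to 0 the rise of PIK3CB was lost.

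**Figure D5:**
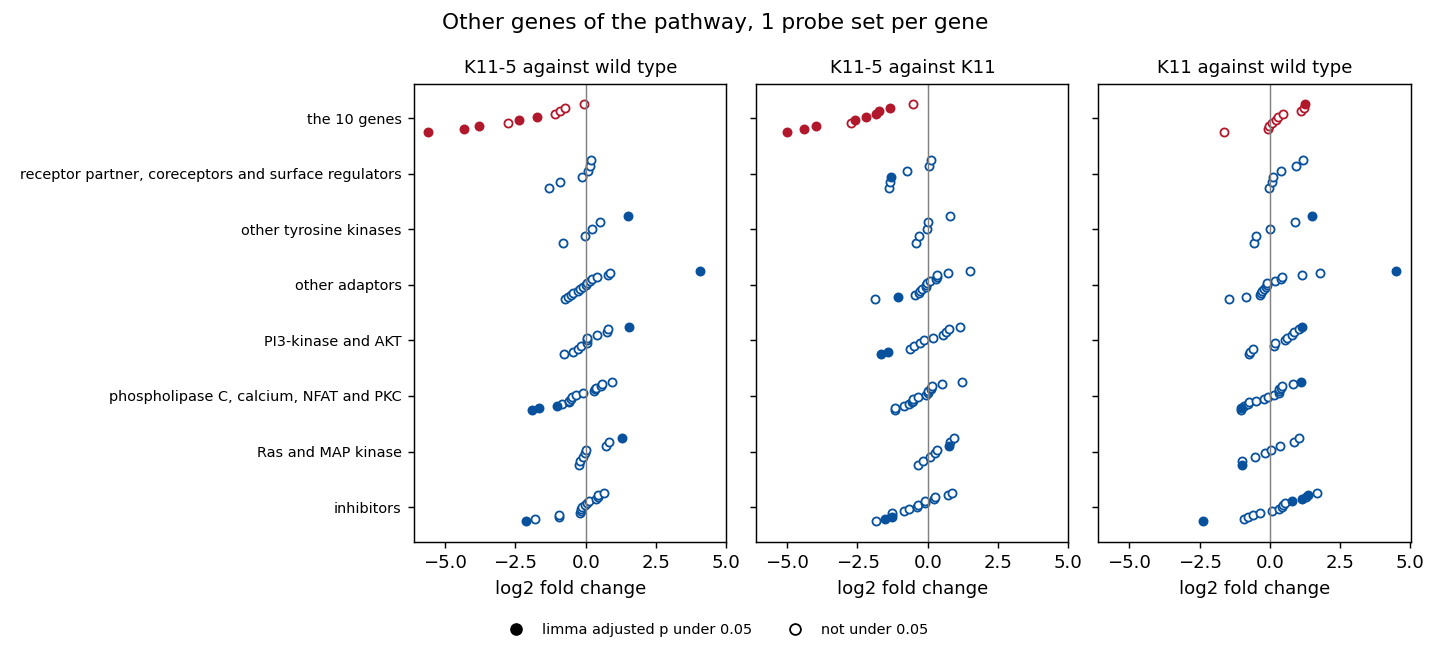
Log2 fold change of each tested gene, 1 probe set per gene, for the 10 genes of the signalling chain (red, top row) and the 7 lists of other pathway genes (blue); filled points passed the threshold. In K11-5 against wild type the 10 genes all lie below 0, but they were chosen with earlier results known, so the rows are not compared. The other lists spread on both sides of 0, with SLA at 4.06 the farthest to the right.

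The B cell identity of the arrays was read from 9 marker genes, each above the floor in at least 1 array. Their summed signal was 4580 and 2550 in K11-5, 6103 and 7849 in K11, and 3343 and 3975 in wild type; in the mutants most of it came from IGLL1, the annotation's name for a light chain gene. Of the 8 tested, 2 fell and 1 rose in K11-5 against wild type, and 1 fell and 1 rose in K11 against wild type. In K11-5 against K11, 3 fell. Over all genes tested, 3.62 percent fell and 3.51 percent rose in the first comparison. The shares were 5.24 and 5.08 percent in the second, and 2.35 percent fell in the third. IGLL1 was the marker that rose, by 1.22 in K11-5 (adjusted p = 0.00798) and 1.98 in K11 (adjusted p = 0.000777). POU2AF1, a B cell coactivator, read 425 and 2.02 in K11-5, 898 and 1718 in K11, and 1270 and 1549 in wild type, so that K11-5 replicate 2 was under the floor where replicate 1 was not. EBF1, a B lineage transcription factor, read 44.1 and 17.2 in K11-5, 122 and 203 in K11, and 184 and 207 in wild type. It fell in K11-5 against wild type (-2.73, adjusted p = 0.00507) and against K11 (-2.42, adjusted p = 0.0155). VPREB3, which assists receptor assembly, was under the floor in both K11-5 arrays and at 87.8 to 578 in the other 4, lower in K11-5 than in either of the other groups and lower in K11 than in wild type (-1.88, adjusted p = 0.0186). CIITA, the activator of MHC class II genes, was at least 3.69-fold lower in K11-5 than in K11 (adjusted p = 0.0165). PAX5, the factor that maintains B cell identity, was dim throughout, at 3.76 to 30.0, and at 1.45 in K11-5 and 1.43 in K11 on the log2 scale relative to wild type did not pass (adjusted p = 0.246 and 0.218). IKZF1 and IKZF3, lymphoid transcription factors, passed in no comparison.

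Markers of other cell types were summed in the same way. Of 9 T cell markers, 6 were under the floor in all arrays, CD3E, CD4 and LCK among them. The sum was 245 and 439 in K11-5, 1214 and 908 in K11, and 1207 and 1215 in wild type, nearly all from CD3D. Of 9 myeloid markers, CSF3R and LYZ were under the floor in all arrays. Their sum was 556 and 647 in K11-5, 1138 and 729 in K11, and 238 and 183 in wild type, with CEBPB the largest contributor. The 4 erythroid markers summed to 20.2 and 43.9 in K11-5, 36.4 and 52.5 in K11, and 35.6 and 37.4 in wild type. These erythroid sums overlapped between the groups, and none of the 3 erythroid markers tested passed in any comparison. Of 2 T cell markers tested, 1 fell in K11-5 against wild type and 1 fell in K11-5 against K11. Of 7 myeloid markers tested, 1 rose in K11-5 and 2 rose in K11 against wild type, and 1 fell in K11-5 against K11. The shares over all genes were those given for the B cell markers. The part of the T cell and myeloid differences in the receptor chain results was not tested.

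Among 10005 other genes, those whose log2 signals over the 6 arrays ran closest to CD79B were EDARADD (Pearson r = 0.997), KLHL9 (0.995), CCSAP (0.993), RCC1L (0.992) and HVCN1 (0.992). HVCN1, a proton channel of B cells, read 81.5 and 7.74 in K11-5, 717 and 1160 in K11, and 438 and 755 in wild type. HVCN1 was picked for its likeness to CD79B over these same arrays. Its low K11-5 level and lower K11-5 replicate 2 therefore follow from that choice. Along the chain itself r with CD79B was 0.981 for BTK, 0.959 for DAPP1 and 0.919 for BLNK. At the brighter and dimmer probe sets it was 0.948 and 0.834 for RASGRP3, 0.946 and 0.835 for CD72, and 0.942 and 0.880 for SYK. It was 0.832 for PIK3AP1, 0.798 to 0.879 for PLCG2, and 0.503 to 0.640 for the 3 LYN probe sets. The 6 points are 3 groups of 2 arrays, so these values mix differences between groups with differences between arrays of a group. The K11-5 arrays of CD79B were themselves 6.93-fold apart. On the deposited scale none of the 5 genes stayed among the 5 closest.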

How the data were processed

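RNA of DT40 cells (6 arrays, 2 for each of 3 groups taken from the labels' titles) was measured on Affymetrix chicken arrays. The authors' deposited values are linear intensity per probe set, made with GCOS per the submitters' processing notes; no source used here gives its version, algorithm or scaling target. Since the arrays' trimmed means (trimmed at 0.02 of each end) differed 1.62-fold, all 38535 probe sets were quantile normalized.

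Differences were tested on log2(intensity + 2) with limma 3.58.1 in R 4.3.3. The fit used 1 mean per group, empirical Bayes with an intensity trend and 3 residual degrees of freedom. Each probe set had 1 spread for all 3 groups, also where the groups differed in spread. Testing covered the 23063 probe sets whose mean of log2(intensity + 2) over the 6 arrays reached the 40th percentile, equal to a signal of 5.83. Benjamini-Hochberg adjustment ran over all of them, with a threshold of 0.05. The 96 control probe sets of the manufacturer were left out. Fold changes are on the log2(signal + 2) scale and understate changes of dim probe sets. Where an array of the dimmer group lay under the floor of 11.4, the fold is a lower bound, with each such array set to the floor. Such a bound applies to the fold between group means and leaves out the spread between arrays. The number of arrays limits the precision.

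Genes were named from the platform annotation, 27168 probe sets having 1 symbol, 177 several and 11094 none, and updated through RefSeq's GRCg7b table, which also gave chromosomes; the array's own build is not given. No coordinates or sequences were used. The probe sets named were all those of the 10 genes, up to 3 genes of smallest p per pathway list and comparison among those past the threshold, and the 5 genes closest to CD79B. For pathway and marker genes the brightest probe set stands for the gene. Some pathway genes are not reported here. Members, lists and rules were chosen with earlier results of these data known. Replicate numbers did not pair the arrays, since deviations of same-numbered arrays correlated at -0.03, -0.04 and 0.06. The alternatives were other scalings, offsets, filters and models, and leaving out each array in turn. Leaving out 1 array left a single array in 1 group, so that fit holds nothing of that group's spread.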

Additional observations from a re-analysis of the deposited data

Results flagged for a closer look

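At 11 probe sets of the chain the K11 and K11-5 effects against wild type differed, by the direct test of K11-5 against K11 (limma, threshold 0.05 after adjustment over all probe sets). On the log2 scale these differences were -4.42 for CD79B, -3.97 for the brighter probe set of CD72, -1.36 for the brighter probe set of SYK, -1.73 for BTK, -2.19 for PIK3AP1 and -2.61 for DAPP1. They were -1.84, -2.48 and -1.55 for 3 probe sets of PLCG2, and -5.02 and -5.02 for both probe sets of RASGRP3. The CD72 and RASGRP3 values are fitted ones that include K11-5 arrays under the floor. Their bounds were at least 7.03-fold lower for CD72, and at least 25.6-fold and 14.2-fold lower for RASGRP3. Both K11-5 arrays lay below both K11 arrays in all 11, which follows largely from choosing them by this test. Of all probe sets tested, 21.8 percent had that order and 1.76 percent were called lower. CD79B, BTK, both RASGRP3 probe sets and the brighter CD72 probe set kept the call without each array in turn, and the other 6 lost it without K11-5 replicate 2. A fit without a K11-5 array holds none of the spread within K11-5. Groups of 2 arrays were too small to be searched for single outlying arrays by Dixon's test.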

How the results depend on the processing

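Over the alternatives, 951 single values kept their direction and their side of the threshold, 168 lost a call, 34 gained one and 20 changed sign without being called before or after. Without the intensity trend every count of members and of pathway genes was 0. Members that rose in K11 against wild type numbered 0 on the deposited scale and with array medians centred, 4 with an offset of 16, 1 without the filter and 1 with chromosome medians centred. Over all probe sets tested, 1.37, 3.12, 4.14, 1.72 and 2.9 percent rose in these fits, in that order. In the same comparison 1 member fell on the deposited scale and 1 with the offset of 16, where 11.3 and 4.54 percent of all fell. Other pathway genes on the deposited scale gave 11 falls and 1 rise in K11 against wild type. They gave 2 falls and 4 rises in K11-5 relative to K11, and 1 rise in K11-5 relative to wild type. Over all probe sets tested, those shares were 11.3, 1.37, 1.07, 3.39 and 1.32 percent, in that order. With array medians centred these pathway genes gave 7 falls in K11 against wild type and 3 rises in K11-5 against K11. Their rises in K11-5 relative to K11 numbered 0 without the filter and 0 with chromosome medians centred. Centring chromosome medians gave 4 rises in K11 against wild type. The shares over all probe sets were 6.42, 2.31, 0.406, 0.954 and 2.9 percent, in that order. With a replicate block, 7 members fell in K11-5 against wild type, 3 rose in K11 and 12 fell in K11-5 against K11. The shares over all probe sets tested were then 2.72, 3.72 and 1.84 percent. Replicate numbers do not pair the arrays. Each fit without 1 array leaves a single array in 1 group, and the share called over all probe sets moved between these fits. The ranges that follow are thus not read as a trait of the members or of the pathway genes. Without 1 array at a time, members that fell ranged over 3 to 10 (K11-5 against wild type), 0 to 1 (K11 against wild type) and 5 to 15 (K11-5 against K11), and those that rose over 0 to 0, 0 to 4 and 0 to 0. Pathway genes that fell ranged over 0 to 7, 0 to 5 and 1 to 7, and those that rose over 1 to 7, 2 to 9 and 0 to 3. Sign changes under another scaling were, in K11 against wild type on the deposited scale, CD79B -0.49, DAPP1 -0.26, LYN -0.097 and SYK -0.25; CD79B -0.20 with array medians centred; and LYN 0.36 in K11-5 relative to wild type with chromosome medians centred. Values that changed sign when 1 array was left out ranged, in K11 relative to wild type, from -0.36 to 0.24 for BLNK, -0.20 to 0.17 for BTK, -0.19 to 0.35 for CD79B, -0.35 to 0.82 for DAPP1, -0.043 to 0.60 for SYK and -0.32 to 1.56 for the dimmest LYN probe set. In K11-5 relative to wild type they ranged from -0.22 to 0.097 for the bright LYN probe set, -1.47 to 0.42 for the dimmest, and -1.87 to 0.071 and -1.40 to 0.18 for 2 probe sets of PLCG2. In K11-5 relative to K11 a dim LYN probe set ranged from -0.59 to 0.11. The cause was not tested. The deposited scale moved the median of all probe sets to -0.12 (K11-5 minus wild type), -0.31 (K11 minus wild type) and 0.22 (K11-5 minus K11). With 2 arrays a group, signals near the floor give bounds only.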
